A study of Mus musculus with 24 samples.

Results

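The genes of glycolysis, lactate handling and glucose transport were followed by their mRNA in mouse retinal organoids made from embryonic stem cells. The set holds 34 genes chosen by name for their place in the pathway, from the glucose carriers of the cell surface to the enzymes that pass pyruvate to lactate or to the mitochondrion. All 34 were found among the 33846 genes of the deposited table, and all 34 passed the filter on low counts that left 16792 genes for testing. The choice used no measured value of these libraries, but it was made with earlier results of the same data known.

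Polyadenylated RNA of 24 organoid samples was sequenced from stranded libraries. Retinal organoids of wild-type embryonic stem cells stayed whole in static suspension culture in the method called SSCi. In the others the optic cups, the retina-forming vesicles, were cut free on differentiation day 10. The freed cups then went on in static suspension in SSCd, and in RWB they turned in a rotating-wall vessel, a bioreactor that holds tissue afloat by slow rotation. RWB was sampled on day 18 (D18) with 2 libraries, D22 with 3 and D25 with 3. SSCd was sampled on D18, D22 and D28 with 3 libraries each, and SSCi on D18 and D25 with 2 each and on D32 with 3. All groups shared a medium with N2 supplement, taurine, 9-cis retinal and IGF1. Serum, B27 and non-essential amino acids joined the medium of RWB and SSCd at D18, while SSCi received them at D26, so day and medium cannot be told apart within a culture method, and SSCi differed from the other methods in medium as well as in dissection on D18 and D25. The labels name 2 stem cell clones, R1 and a clone from mice with a green fluorescent reporter driven by the rod gene Nrl, and do not tie them to samples. The repeated experiments count as biological replicates in the design text, which gives no more on what was repeated.

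Glycolysis splits glucose into pyruvate. Glucose enters through carriers such as Slc2a1 and Slc2a3, hexokinase traps it as a phosphate, phosphofructokinase commits it to breakdown, and the later enzymes recover ATP. Pyruvate is then reduced to lactate by lactate dehydrogenase and exported by monocarboxylate carriers, or it enters the mitochondrion through the Mpc1 and Mpc2 carrier and is oxidised by pyruvate dehydrogenase, which the Pdk kinases switch off. Photoreceptors are known for turning much of their glucose into lactate even with oxygen at hand, and most steps have isoenzymes with different tissue preferences. Many genes of the pathway are known targets of hypoxia-inducible factors, transcription factors held down by oxygen.

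The core letters that hypoxia-inducible factors bind are ACGTG and GCGTG, and 4 promoters are shown because they belong to genes that were lower in the rotating cultures and differ in how often they hold these letters. Windows run from 250 bases before to 50 after a start site in RefSeq on GRCm38.p6, and 31 of the 34 members had at least 1, with 48 windows in all. Capitals mark ACGTG or GCGTG, or the same letters on the opposite strand, read here as CACGT or CACGC. The windows are Pgk1 at chrX:106186850-106187149 on the plus strand, Ldha at chr7:46845554-46845853 on the plus strand, Aldoa at chr7:126799129-126799428 on the minus strand and Pdk1 at chr2:71872974-71873273 on the plus strand.
Pgk1 promoter: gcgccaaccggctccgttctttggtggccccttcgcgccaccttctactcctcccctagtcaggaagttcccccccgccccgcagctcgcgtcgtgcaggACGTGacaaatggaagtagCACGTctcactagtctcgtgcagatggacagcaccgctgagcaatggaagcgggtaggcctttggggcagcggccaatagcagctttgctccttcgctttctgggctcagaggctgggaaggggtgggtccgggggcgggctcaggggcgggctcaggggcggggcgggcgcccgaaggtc
Ldha promoter: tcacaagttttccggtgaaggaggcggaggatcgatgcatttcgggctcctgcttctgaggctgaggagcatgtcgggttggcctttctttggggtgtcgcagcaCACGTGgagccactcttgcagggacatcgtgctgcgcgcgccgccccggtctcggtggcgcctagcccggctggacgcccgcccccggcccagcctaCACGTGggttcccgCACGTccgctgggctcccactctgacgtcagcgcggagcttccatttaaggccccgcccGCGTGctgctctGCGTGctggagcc
Aldoa promoter: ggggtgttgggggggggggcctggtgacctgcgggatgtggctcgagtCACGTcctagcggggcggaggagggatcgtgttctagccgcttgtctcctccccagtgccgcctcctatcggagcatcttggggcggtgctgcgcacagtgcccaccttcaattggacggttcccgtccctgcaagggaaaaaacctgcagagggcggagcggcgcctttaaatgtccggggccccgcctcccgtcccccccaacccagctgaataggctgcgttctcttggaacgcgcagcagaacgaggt
Pdk1 promoter: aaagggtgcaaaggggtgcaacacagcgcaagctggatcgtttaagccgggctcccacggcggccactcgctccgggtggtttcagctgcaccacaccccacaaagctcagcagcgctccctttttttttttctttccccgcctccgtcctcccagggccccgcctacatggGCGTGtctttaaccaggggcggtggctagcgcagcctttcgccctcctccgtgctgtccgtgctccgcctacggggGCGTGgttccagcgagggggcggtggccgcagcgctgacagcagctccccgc

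Pgk1 held ACGTG 150 bases before its start site and, on the opposite strand, 131 before it. Ldha held it 5 times, 4 of them as 2 palindromes of CACGTG that count once on each strand, and Aldoa held it once, on the opposite strand 202 bases before the start. Pdk1 had no ACGTG in this window and GCGTG 2 times. Over all windows of the members, read on both strands, ACGTG stood in 22 of 48 (45.8%), against 19.6% of all 32851 windows of the table and 23.5% of the 15555 windows of genes tested here. Either motif stood in 37 of 48 windows (77.1%), against 43.8% and 58.0%. Windows of a gene can overlap and count the same site again, as those of Aldoa and Eno1 do. By gene, 27 of 31 members (87.1%) held either motif, against 46.7% of all 27025 genes with a window. The members had 48 windows for 31 genes and all genes 32851 for 27025, and more windows give more room for a match. The share by gene among genes tested was not counted. Gpi1, Tpi1, Pgam2 and Eno2 held neither in their windows. Slc2a3, Slc16a7 and Bsg had no window. Other factors share CACGTG, so a match is a description of the letters.

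Another choice within the pathway is made by splicing. The pyruvate kinase gene Pkm carries a pair of alternative exons of equal length, of which a transcript uses M1 or M2, and M2 is the form known from growing cells and from photoreceptors. The exons are shown because their differing letters separate reads of the isoforms that fall on them. They lie on the plus strand of GRCm38, M1 at chr9:59675029-59675195 and M2 at chr9:59675568-59675734 in the GENCODE annotation, each 167 bases long, and capitals mark the positions at which they differ.
Pkm exon M1: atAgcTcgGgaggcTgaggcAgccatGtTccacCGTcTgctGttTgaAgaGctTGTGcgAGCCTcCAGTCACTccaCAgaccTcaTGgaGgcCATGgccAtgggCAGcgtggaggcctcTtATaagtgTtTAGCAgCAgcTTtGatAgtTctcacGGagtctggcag
Pkm exon M2: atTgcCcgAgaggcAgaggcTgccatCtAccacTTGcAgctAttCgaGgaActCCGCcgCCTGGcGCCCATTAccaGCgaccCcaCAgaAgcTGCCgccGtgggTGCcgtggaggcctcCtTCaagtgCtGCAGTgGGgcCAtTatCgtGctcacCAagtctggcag

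The exons were identical at 103 of 167 positions (61.7%). Apart from their first and last exons, which were not compared, the M1 and M2 transcripts differ in this exon alone. Their estimated counts can rest on these letters and on any difference at the ends. The shares of M1 and M2 are given with the isoenzymes.

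Total estimated counts ranged from 13284632 to 21604446 per library. Mitochondrially encoded genes took between 8.26% and 13.1% of counts in libraries numbered 1 of RWB D22, RWB D25, SSCd D18 and SSCd D22, and at most 5.76% in the other 20. Levels of a gene are given as CPM, estimated counts per 1000000 counts of the library after TMM scaling, and levels of different genes are compared only where scaled by length. In library 1 of SSCi D18 the 6 mesenchyme markers summed to 6149 CPM, against at most 286 CPM in any other library. Of the markers of the tissue, the rod gene Nrl was present in every group, and its mean went from 10.4 CPM in RWB D18 to 595 CPM in RWB D25 and from 22.0 to 1247 CPM in SSCi. The blood marker Hba-a1 was at 0 in 8 of the 9 groups, the keratin Krt14 was at 0 in all 9, and the endothelial cadherin Cdh5 stood at no more than 0.102 CPM, as group means. Other markers of their lists were present. Over the libraries the endothelium list summed to 41.1 to 301 CPM and the surface epithelium list to 8.19 to 67.0 CPM. The blood list summed to 0.140 to 1.50 CPM.

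Together the 34 genes took from 0.776% to 3.46% of a library's counts. The share was lowest in RWB D18 (0.776% and 1.05%) and highest in SSCd D28 (2.79%, 3.06% and 3.46%). At D22 it was 1.21%, 1.34% and 1.51% in RWB and 2.86%, 2.88% and 2.34% in SSCd, without overlap. Of the 34 members 23 had their lowest group mean in RWB D18, and 13 had their highest in SSCi D32 and 7 in SSCd D28. Ldhb, Pdha1, Pdhb, Mpc1 and Mpc2 were the 5 with their highest mean in RWB D25, 4 had it in SSCd D22, 4 in SSCi D18 and 1 in SSCi D25. How many of all genes have their lowest or highest mean in these groups was not counted. These counts therefore describe the members and do not set them apart from other genes.

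**Figure D1:**
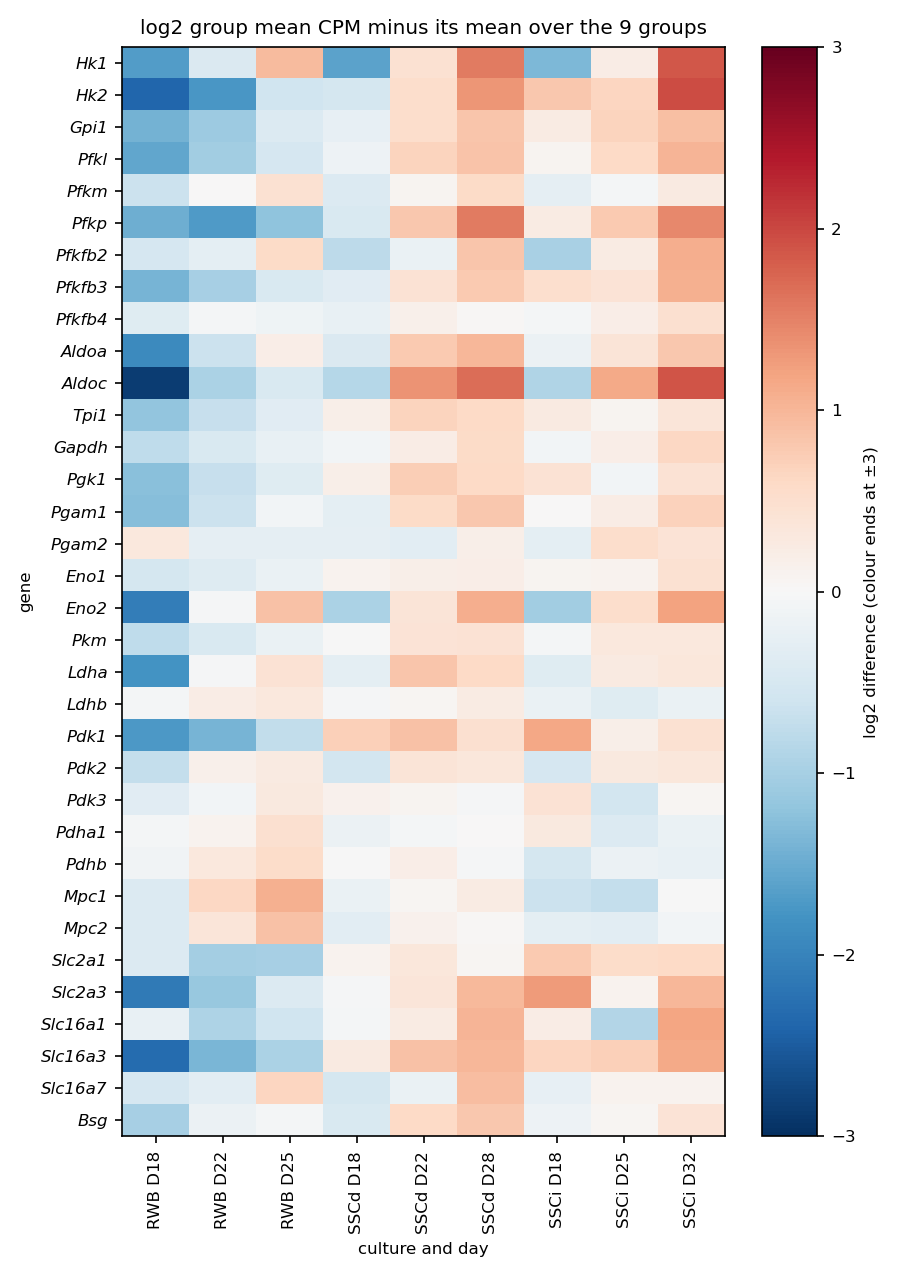
Group mean CPM of the 34 genes (rows) in the 9 culture and day groups (columns), as the log2 value minus the gene's mean over the groups. RWB D18 is the bluest column, with 23 of the 34 lowest means, while Mpc1, Mpc2, Pdha1, Pdhb and Ldhb are reddest in RWB D25. The share of all genes with such extremes in these groups was not counted.

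Scaled by transcript length (estimated transcript counts divided by annotated length and set to the same total in every library), the members with the highest means in SSCi D32 were Gapdh, Ldha, Aldoa, Pkm and Eno1. There Gapdh stood at 6531 ± 586, Ldha at 4755 ± 68.0, Aldoa at 3512 ± 51.7, Pkm at 3506 ± 73.8 and Eno1 at 3092 ± 245 length-scaled units (mean ± SD, n = 3). The low end was held by Pgam2, the muscle mutase, at 5.20 ± 0.593, and by the carrier Slc16a7 at 4.29 ± 0.464 in the same libraries. Among the phosphofructokinases the platelet-type Pfkp was highest in SSCi D32, at 824 ± 119.7 against 376 ± 8.68 for Pfkl and 88.8 ± 6.91 for Pfkm. In RWB D25 the 3 lay closer, with Pfkp at 117 ± 83.7, Pfkl at 116 ± 79.7 and Pfkm at 84.2 ± 34.3, and their ranges over libraries overlapped. Hexokinase 1 outweighed hexokinase 2 in 8 of the 9 groups. The exception was SSCi D18, with Hk2 at 45.8 ± 2.26 and Hk1 at 35.1 ± 7.75 (n = 2).

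The question that the rotating cultures pose is what the bioreactor does to tissue that was dissected in the same way. Much of the route from glucose to lactate was lower in RWB than in SSCd. At D22 edgeR called 11 of the 34 members lower in RWB (adjusted p under 0.05 by Benjamini-Hochberg over all genes tested), where 1.49% of all genes were lower and 0.405% higher. The 11 were Hk1, Gpi1, Pfkl, Pfkp, Aldoa, Aldoc, Tpi1, Pgk1, Pgam1, Pdk1 and the carrier partner Bsg, and 23 members were not called. At D18 edgeR called 6 members lower (Aldoa, Aldoc, Pgk1, Eno2, Ldha and Pdk1), where 0.417% of all genes were lower and 0.0715% higher. Aldoa, Aldoc, Pgk1 and Pdk1 were thus lower on both days. The median log2 fold change of the members was -0.87 at D22 and -0.64 at D18, against -0.0027 and -0.0036 for all genes tested. Of the 11 calls at D22, those of Gpi1, Aldoa, Aldoc, Pgk1 and Pdk1 stood whichever 1 of the 6 libraries was left out. The count at D22 was 7 without SSCd library 1, 6 without RWB library 1, 5 without RWB library 2, 0 without both libraries numbered 1, 4 in a fit of these groups alone and 19 by DESeq2. At D18 it was 0 without SSCd library 1 or either RWB library, 0 in a fit of these groups alone, 3 without SSCd library 3 and 10 by DESeq2.

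**Figure D2:**
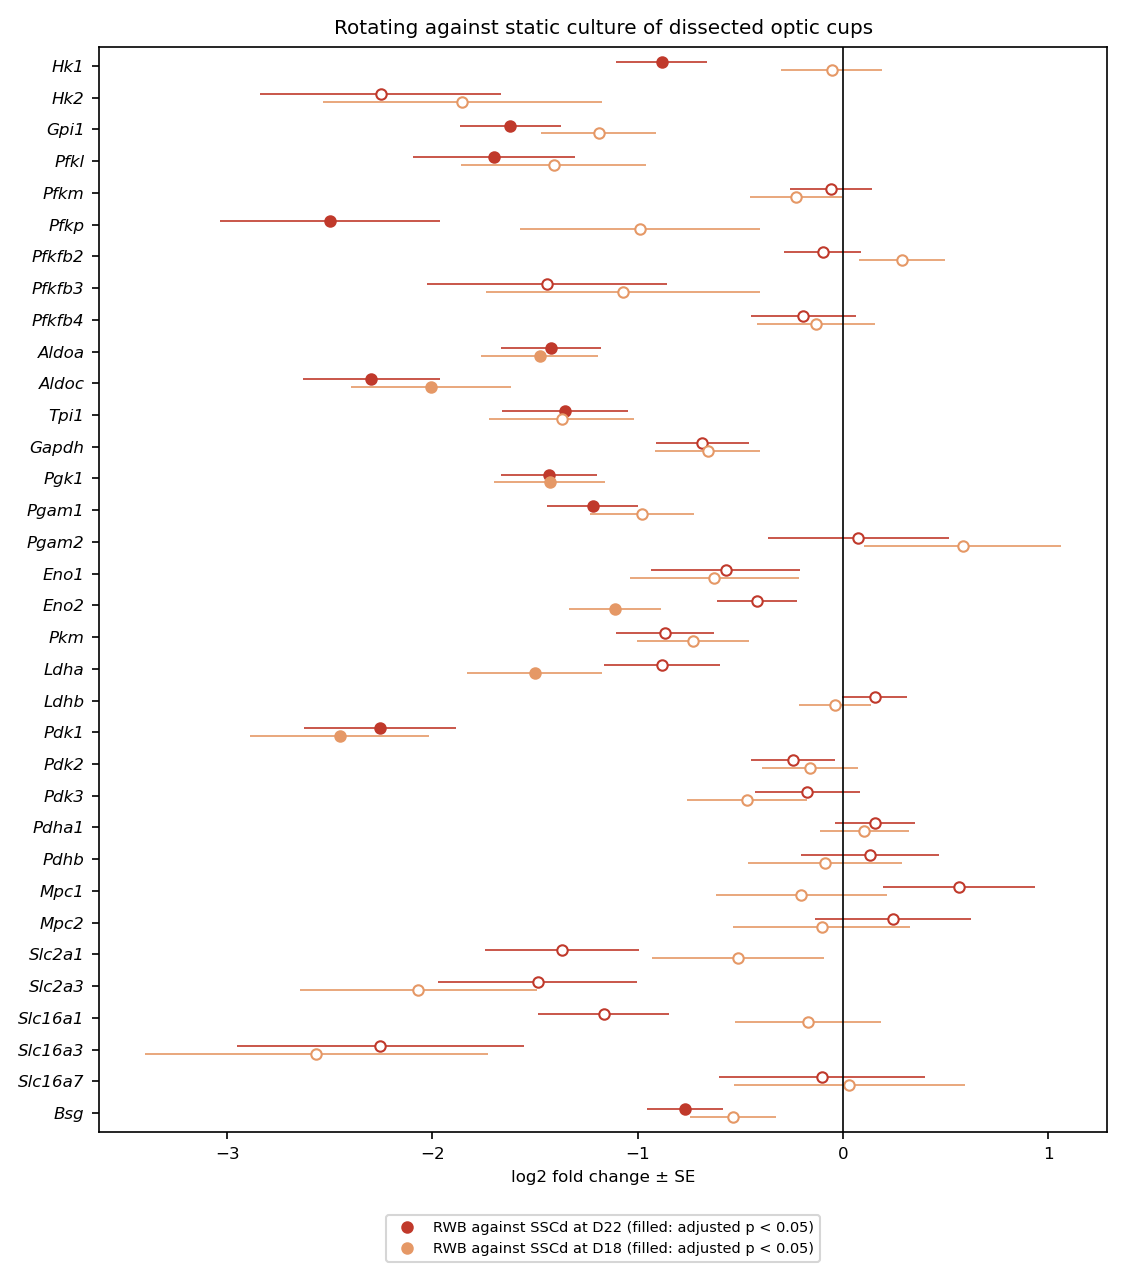
The log2 fold change of each member in RWB against SSCd at D22 (red) and D18 (orange), with its standard error, filled where the edgeR adjusted p is under 0.05. Filled points lie to the left of 0 on both days, and Pdha1, Pdhb, Mpc1 and Mpc2 lie between -0.20 and 0.56.

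Glucose entry and trapping came first. Slc2a1, the main glucose carrier of the retina, had 219.7, 243 and 390.3 CPM in the RWB libraries of D22 and 874, 885 and 446 CPM in those of SSCd. The groups did not overlap, and the difference of -1.37 on the log2 scale (SE 0.38) was not called (edgeR adjusted p = 0.0679). At D18 Slc2a1 had 489 and 383 CPM in RWB and 497, 774 and 595 CPM in SSCd, a difference of -0.51. The neuronal carrier Slc2a3 had 25.5, 23.0 and 62.3 CPM in RWB and 101, 123 and 86.8 CPM in SSCd at D22, and 26.5 and 10.7 against 67.4, 100.2 and 66.8 CPM at D18. Its differences of -1.49 (SE 0.48) and -2.07 (SE 0.58) were not called, although every RWB library lay below every SSCd library of its day. Of all genes tested 17.8% had groups that did not overlap at D22 and 25.4% at D18.

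Hexokinase 1, the form of brain, was called at D22 only. Hk1 had 128, 104 and 134 CPM in RWB and 318, 193 and 165 CPM in SSCd, with no overlap. Its log2 difference was -0.88 (SE 0.22, edgeR adjusted p = 0.0410). On D18 Hk1 had 50.3 and 53.0 CPM in RWB and 40.7, 62.8 and 57.5 CPM in SSCd, and the groups overlapped. Hexokinase 2, the inducible form, differed more but with a wider spread. Hk2 had 7.54, 10.0 and 40.4 CPM in RWB and 107, 115 and 55.4 CPM in SSCd at D22, and 15.2 and 9.45 against 36.9, 52.0 and 44.9 CPM at D18, without overlap on either day. Its log2 fold changes of -2.25 (SE 0.59, edgeR adjusted p = 0.0536) and -1.85 (edgeR adjusted p = 0.348) were not called. With the replicate number as a block, since D22 libraries of the same number deviated together, Hk2 was called at D22 (-2.64, edgeR adjusted p = 0.0491) and the count of members went from 11 to 12. Gpi1, which turns glucose phosphate into fructose phosphate, had 413, 358 and 565 CPM in RWB and 1469, 1277 and 1359.9 CPM in SSCd at D22, a log2 difference of -1.62 (with SE 0.25, edgeR adjusted p = 0.00194). On D18 Gpi1 had 362 and 342 CPM against 799, 803 and 809.9 CPM, again without overlap (-1.19, edgeR adjusted p = 0.0648).

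Phosphofructokinase catalyses the committed step, and its 3 genes did not move alike. The platelet-type Pfkp had 48.6, 123 and 243 CPM in RWB at D22 and 408, 776 and 1159.7 CPM in SSCd, a log2 difference of -2.50 (with SE 0.54, edgeR adjusted p = 0.0160). The liver-type Pfkl had 105, 137 and 199 CPM in RWB and 493, 531 and 412 CPM in SSCd (-1.70, SE 0.39, edgeR adjusted p = 0.0272). In both genes all RWB libraries lay below all SSCd libraries. The muscle-type Pfkm had 107, 98.9 and 117 CPM in RWB and 99.7, 99.3 and 137 CPM in SSCd, overlapping, with a difference of -0.06. On D18 Pfkp had 118 and 208 CPM in RWB and 356, 298 and 315 CPM in SSCd, Pfkl 116 and 88.3 against 165, 360.4 and 289 CPM and Pfkm 69.5 and 65.6 against 66.8, 82.8 and 88.3 CPM, and none of the 3 was called. The bifunctional enzymes Pfkfb2, Pfkfb3 and Pfkfb4 set the level of fructose-2,6-bisphosphate, the activator of phosphofructokinase, and none of them was called on either day. Their differences at D22 were -0.10, -1.44 and -0.19 in that order.

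The aldolases, which cut the sugar into trioses, were lower on both days. Aldoa, the ubiquitous form, had 938, 791 and 1007 CPM in RWB at D22 and 3124, 2401 and 1817 CPM in SSCd. On D18 it had 450.2 and 304 CPM in RWB and 939, 1105 and 1110.0 CPM in SSCd. The groups stood apart on both days, by -1.42 (SE 0.24, edgeR adjusted p = 0.00418) and -1.48 (SE 0.28, edgeR adjusted p = 0.0200). Aldoc, the brain form, had 35.9, 31.02 and 65.9 CPM in RWB and 315, 198 and 140.2 CPM in SSCd at D22, and 15.5 and 8.23 against 63.8, 43.4 and 35.9 CPM at D18. Its log2 fold changes were -2.30 (SE 0.33, edgeR adjusted p = 0.00115) and -2.01 (SE 0.39, edgeR adjusted p = 0.0222). Tpi1, which interconverts the trioses, had 538, 678 and 623 CPM in RWB and 1621, 1861 and 1217 CPM in SSCd at D22 (-1.35, SE 0.31, edgeR adjusted p = 0.0237). On D18 Tpi1 had 563 and 299 CPM against 929.7, 1348 and 1068 CPM and was not called.

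**Figure D3:**
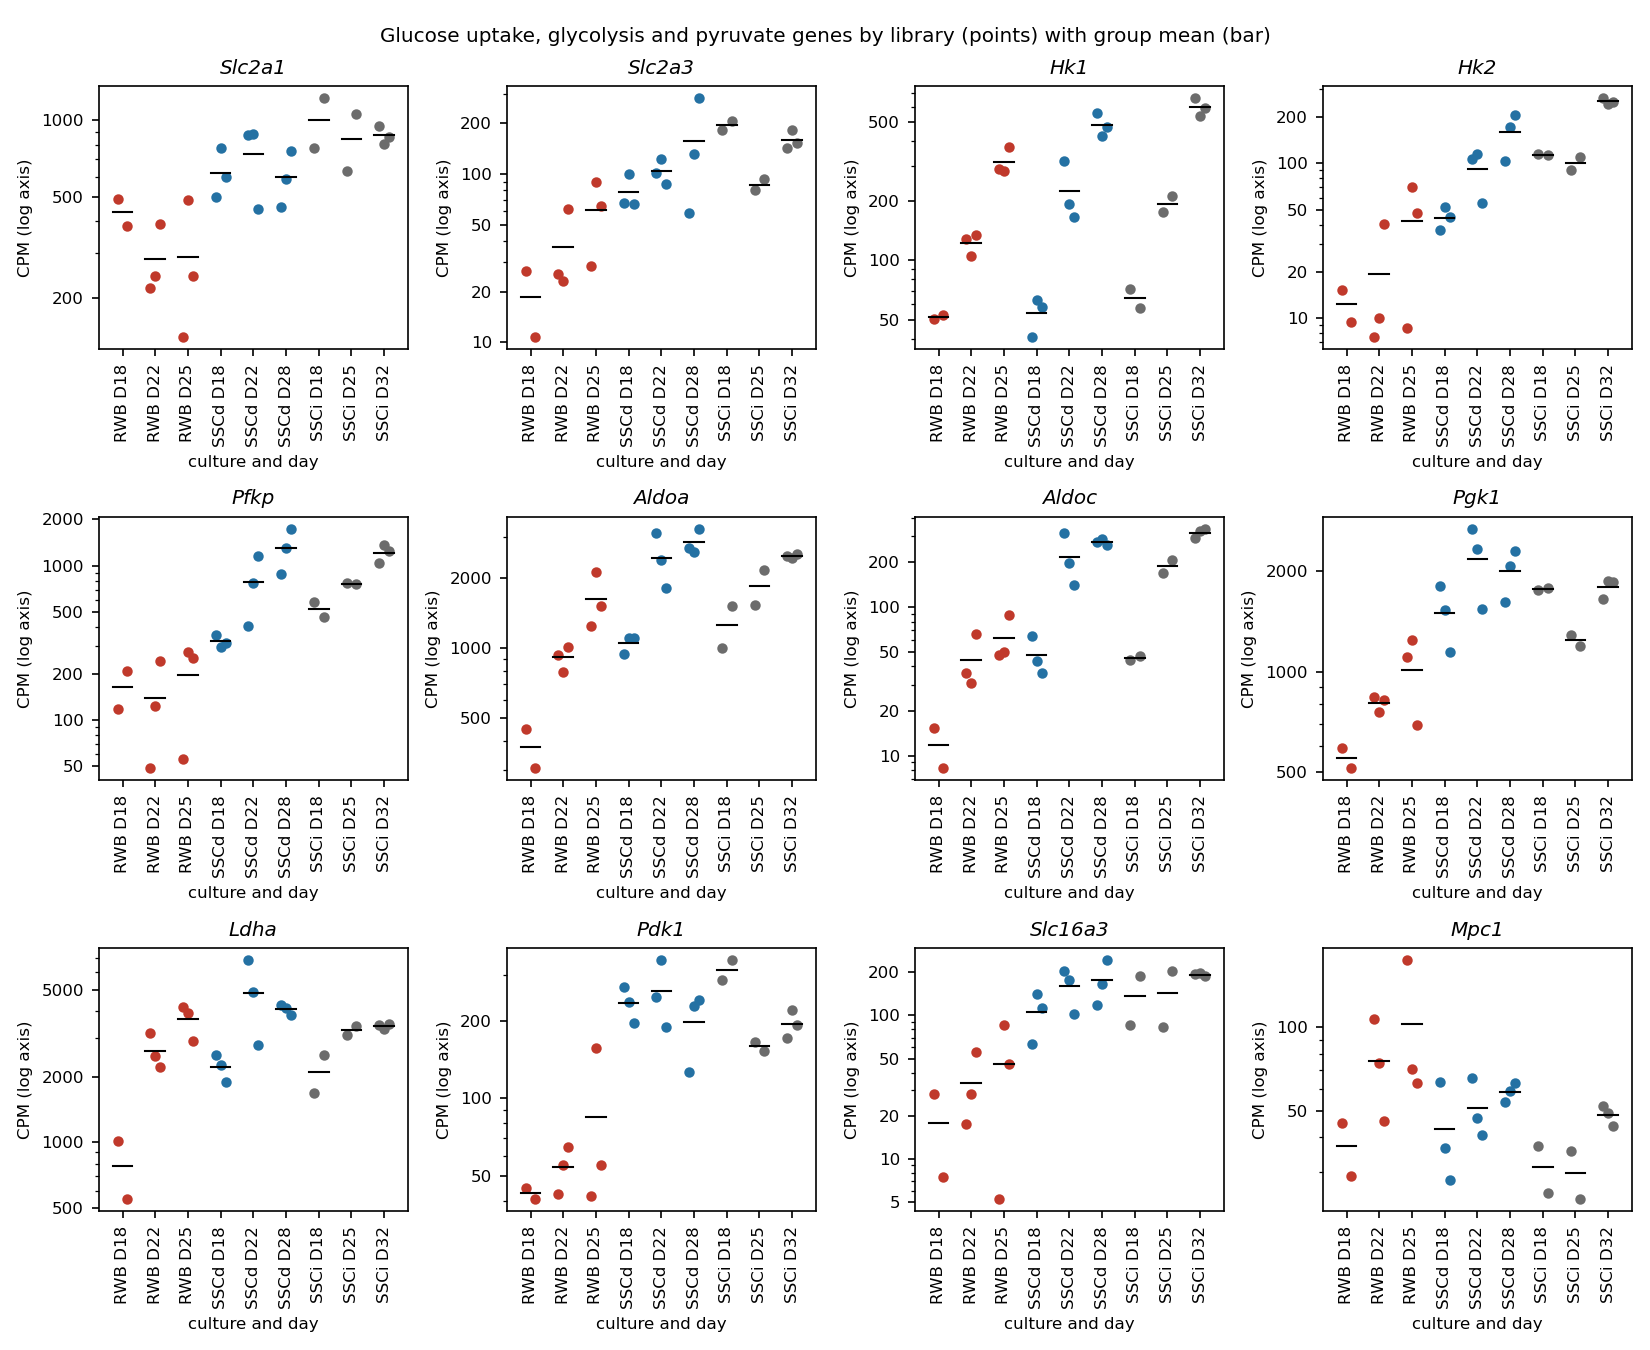
Level of 12 members in every library (points, log CPM axis) with the mean of each group (bar), in RWB (red), SSCd (blue) and SSCi (grey) on each day. Aldoc and Pdk1 in RWB D18 and D22 lie below SSCd of the same day, Hk1 climbs with day in all 3 methods, and Mpc1 is the panel in which RWB D25 has the highest mean. In that panel library 1 of RWB D25 stands above the other RWB D25 libraries.

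In the lower, ATP-recovering steps the 7 genes divided. Pgk1, the first ATP-yielding kinase, had 838, 757 and 824 CPM in RWB at D22 and 2668, 2324 and 1537 CPM in SSCd, and 593 and 515 against 1806, 1523 and 1147 CPM at D18. The differences of -1.43 (SE 0.23, edgeR adjusted p = 0.00347) and -1.43 (SE 0.27, edgeR adjusted p = 0.0198) were of like size. The mutase Pgam1 had 478, 355 and 597 CPM in RWB and 1412, 977 and 942 CPM in SSCd at D22 (-1.22, SE 0.22, edgeR adjusted p = 0.00550). On D18 Pgam1 had 303 and 310.0 CPM against 694, 617 and 503 CPM, without overlap and not called. The neuronal enolase Eno2 had 43.2 and 35.2 CPM in RWB and 81.2, 78.3 and 94.7 CPM in SSCd at D18 (-1.11, SE 0.23, edgeR adjusted p = 0.0276). At D22 Eno2 had 189, 147 and 148 against 282, 176 and 189.8 CPM, -0.42 and not called. The ubiquitous enolase Eno1 had 1248, 1785 and 1316 CPM in RWB and 2415, 2718 and 1328 CPM in SSCd at D22 and 1680.0 and 949 against 1528, 2679 and 1886 CPM at D18, with overlap on both days. Eno1, Gapdh and Pgk1 have near-identical copies that took up to 46.4%, 21.9% and 16.5% of the joint counts, so their values are uncertain. With the copies added, a check chosen after seeing the data, the number of members called stayed at 11 and at 6. Gapdh (-0.69), Pkm (-0.87) and Pgam2 (0.07) were not called at D22.

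Lactate dehydrogenase joins pyruvate and lactate. Ldha, the subunit of lactate-making tissue, had 1016 and 549.6 CPM in RWB at D18 and 2514, 2252 and 1882 CPM in SSCd, a log2 difference of -1.50 (with SE 0.33, edgeR adjusted p = 0.0436). At D22 Ldha had 3167, 2489 and 2213 CPM in RWB and 6827, 4889 and 2795 CPM in SSCd. Library 1 of RWB then exceeded library 3 of SSCd, and the difference of -0.88 (SE 0.28) was not called (edgeR adjusted p = 0.133). Ldhb, the subunit of oxidative tissue, had 174, 167 and 135 CPM in RWB and 168, 136 and 124 CPM in SSCd at D22, and 140.0 and 119 against 120.2, 139 and 139.9 CPM at D18. Its groups overlapped on both days, with differences of 0.15 and -0.04.

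At the entry to the mitochondrion the kinase Pdk1, which phosphorylates and stops pyruvate dehydrogenase, showed a large difference on both days. Pdk1 had 42.7, 55.3 and 64.9 CPM in RWB at D22 and 246, 344 and 189 CPM in SSCd. On D18 it had 45.0 and 40.6 CPM in RWB and 271, 236 and 196 CPM in SSCd. The highest RWB library of these days stood at 64.9 CPM and the lowest SSCd library at 189 CPM, with log2 fold changes of -2.26 (SE 0.37, edgeR adjusted p = 0.00347) and -2.45 (SE 0.44, edgeR adjusted p = 0.0148). Its relatives Pdk2 and Pdk3 were not called (-0.24 and -0.17 at D22). The dehydrogenase subunits Pdha1 (0.16) and Pdhb (0.13) and the pyruvate carrier subunits Mpc1 (0.56) and Mpc2 (0.24) were not called either, and these 4 ranged from -0.20 to 0.10 at D18. The other 30 members ranged from -2.50 to 0.15 at D22 and from -2.56 to 0.58 at D18, so their ranges reached into that of these 4.

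Lactate leaves cells through monocarboxylate carriers. Slc16a3, the exporter of glycolytic cells, had 17.4, 28.2 and 55.7 CPM in RWB at D22 and 206, 175 and 103 CPM in SSCd, and 28.2 and 7.49 against 63.2, 141 and 112 CPM at D18. The groups did not overlap, but the differences of -2.25 (SE 0.70) and -2.56 (SE 0.84) had wide errors and were not called. Slc16a1 had 14.5, 14.7 and 20.3 CPM in RWB and 53.9, 40.2 and 17.1 CPM in SSCd at D22 (-1.17, edgeR adjusted p = 0.0684, with overlap), and 28.0 and 25.4 against 30.4, 34.7 and 24.9 CPM at D18. The importer Slc16a7 had 6.78, 9.54 and 9.41 CPM in RWB and 4.99, 17.7 and 4.96 CPM in SSCd at D22, and 6.71 and 8.37 against 5.66, 9.32 and 7.11 CPM at D18, with overlap. Bsg, the membrane partner that carries Slc16a1 and Slc16a3 to the surface, had 493, 355 and 472 CPM in RWB and 893, 628 and 727 CPM in SSCd at D22 (-0.77, SE 0.19, edgeR adjusted p = 0.0349). On D18 Bsg had 293 and 205 CPM against 393, 371 and 319 CPM and was not called.

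Genes around the pathway were taken from lists set by name. Of 26 further glycolysis, gluconeogenesis and pyruvate genes, 21 were tested and 1 was lower at D22, Pgm1 (-1.18, edgeR adjusted p = 0.0125), which links glucose phosphate to glycogen. Pgm1 was also the 1 called at D18 (-1.28). Of the 19 other glucose and monocarboxylate carriers tested edgeR called none on either day (1 at D22 and 0 at D18 at an unadjusted p under 0.05), and DESeq2 called none. Of the 8 pentose phosphate genes edgeR called none (3 and 1 at an unadjusted p under 0.05), and DESeq2 called 1 lower at D22. The medians of these lists at D22 were 0.039, -0.034 and 0.18. Of 16 hypoxia-responsive genes outside glycolysis, 4 were lower at D22: Vegfa (-1.61), Egln1 (-1.32), Bnip3 (-1.88) and Egln3 (-2.04). At D18 Bnip3 (-2.49) was the 1 called of the 16, and the median of the list was -1.27 at D22 and -1.23 at D18. At an unadjusted edgeR p under 0.05 there were 12 of the list at D22 and 10 at D18. Of all 16792 genes tested, 2194 at D22 and 1478 at D18 had such a p, which is the background for each list here. DESeq2 called 10 lower at D22 and 5 at D18. Summed over the 16 genes, the RWB libraries of D22 held 1621 to 1925 CPM and those of SSCd 2676 to 4532 CPM.

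Cell type markers moved beside these differences. At D22, of 8 rod markers, 3 were lower in RWB (Pde6b, Rbp3 and Prph2), and the list summed to 1861 to 2568 CPM in RWB and 3146 to 8381 CPM in SSCd. Of 6 cone markers 2 were higher (Gnat2 and Cnga3), with 781 to 1736 CPM against 384 to 1115 CPM. Of 6 proliferation markers 1 was higher (Mcm5), with 974 to 1375 CPM against 533 to 915 CPM. Of the 6 Mueller glia markers edgeR called none and DESeq2 none, with 484 to 621 CPM against 501 to 633 CPM. At an unadjusted edgeR p under 0.05 there were 2 of these 6, beside 2194 of all 16792 genes tested. The pigment epithelium list summed to 34.8 to 501 CPM in RWB and 32.7 to 216 CPM in SSCd, with its defining gene Rpe65 at 0 in both. At D18, 1 rod marker was lower (Prph2), with 210.5 to 314 CPM in RWB and 482 to 789.7 CPM in SSCd. The part of these markers in the differences was not tested, and in bulk RNA fewer cells of a type cannot be told apart from less RNA per cell.

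Whether the gap between RWB and SSCd changed from D18 to D22 was asked with an interaction term. EdgeR called none of the 34 members, with 0% of all genes higher and 0% lower. At an unadjusted p under 0.05 there were 3 members and 525 of all genes, and DESeq2 called 12 genes, none of them members. Those 3 members were Hk1 (-0.83, SE 0.33), Slc16a1 (-0.996, SE 0.47) and Eno2 (0.69, SE 0.29). The estimate for Pfkp was larger with a wider error (-1.51, SE 0.76). Pgk1 (-0.0026, SE 0.34) and Aldoa (0.06, SE 0.36) lay nearer to 0.

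Intact organoids gave another static reference on D18 and D25, with the other medium. At D18 many of the same steps were lower in RWB than in SSCi. EdgeR called 12 members lower, where 4.32% of all genes were lower and 0.911% higher, and the median was -0.82 against 0.0038 for all genes. The 12 were Hk2, Gpi1, Aldoa, Aldoc, Tpi1, Pgk1, Pgam1, Eno2, Ldha, Pdk1, Slc2a3 and Bsg. This comparison shares the RWB D18 libraries with that against SSCd, so the pair is not independent. Hk2 had 114 and 113 CPM in the SSCi libraries (-3.20, SE 0.75, edgeR adjusted p = 0.0182), and Slc2a3 had 183 and 208 CPM (-3.39, SE 0.64, edgeR adjusted p = 0.00640). Pdk1 had 286 and 343 CPM (-2.88, SE 0.46, edgeR adjusted p = 0.00350). All RWB libraries of the day lay below these values. The count was 6 without SSCi library 1, 8 without SSCi library 2, 3 without RWB library 1, 0 without RWB library 2, 1 without both libraries numbered 1 and 0 in a fit of these groups alone.

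The other members with values in SSCi D18 lay on the same side. Gpi1 had 1005 and 1224 CPM, Aldoa 1001 and 1511 CPM, Aldoc 44.2 and 47.1 CPM, Tpi1 888 and 1495 CPM and Pgk1 1757 and 1782 CPM. Pgam1 had 717 and 789 CPM, Ldha 1691 and 2510.5 CPM, Eno2 64.9 and 94.7 CPM and Bsg 464 and 439 CPM. Each of these values exceeded both RWB D18 libraries, and of all genes tested 41.8% had groups that did not overlap. Of the members not called, Hk1 had 71.1 and 56.9 CPM, Pfkp 585 and 467 CPM, Pfkl 228 and 415 CPM and Slc2a1 774 and 1221 CPM. Beside these, 8 of the 16 hypoxia-responsive genes outside glycolysis were lower in RWB, with the smallest p in Car9 (-4.45), Egln3 (-3.33), Bnip3 (-2.84) and P4ha1 (-2.13). Of 6 mesenchyme markers 4 were lower in RWB, where the list summed to 13.8 to 14.9 CPM against 21.0 and 6149 CPM in the SSCi libraries, and their part in the result was not tested.

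Between the static methods no member could be called on D18. EdgeR called none of the 34 between SSCd and SSCi, where 3.51% of all genes were lower and 0.351% higher in SSCd, and DESeq2 called none. At an unadjusted edgeR p under 0.05 there were 3 of the 34 members and 2049 of all 16792 genes tested. The median was -0.25 against 0.023 for all genes. Hk2 stood at -1.35 (SE 0.61), Slc2a3 at -1.32 (SE 0.52), Pgk1 at -0.25 (SE 0.25) and Aldoa at -0.26 (SE 0.27). The shares of all genes depended on single libraries. EdgeR called 649 genes with all libraries and 1339 without SSCi library 2. It called 0 without SSCi library 1, 0 without SSCd library 3 and 0 in a fit of these groups alone. Of 6 mesenchyme markers 4 were lower in SSCd, and their part was not tested.

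At D25 members were called in both directions between RWB and SSCi. EdgeR called 4 members lower in RWB (Gpi1, Pfkp, Aldoc and Slc2a1), where 5.08% of all genes were lower, and 3 higher (Ldhb, Pdha1 and Mpc1), where 3.6% were higher. The median was -0.29 against 0.039 for all genes. These counts stood less far above the background than those against SSCd. None of the 7 calls stood whichever 1 of the 5 libraries was left out. Aldoc had 47.9, 49.5 and 88.6 CPM in RWB and 169 and 207 CPM in SSCi (-1.60, SE 0.35, edgeR adjusted p = 0.00848). Slc2a1 had 140.1, 484 and 243 CPM in RWB and 628 and 1053 CPM in SSCi (-1.54, SE 0.41, edgeR adjusted p = 0.0245). Mpc1 had 175, 70.6 and 62.7 CPM in RWB and 35.6 and 23.9 CPM in SSCi (1.79, SE 0.44, edgeR adjusted p = 0.0162). Library 1 of RWB was the lowest of the 5 in Slc2a1 and the highest in Mpc1. Pdha1 had 209.8, 123 and 125 CPM in RWB and 89.7 and 75.4 CPM in SSCi (0.89, edgeR adjusted p = 0.0184), and Ldhb had 192, 166 and 153 against 105 and 108 CPM (0.68, edgeR adjusted p = 0.0244). The count was 3 without SSCi library 1, 0 without SSCi library 2, 1 without RWB library 1, 0 without both libraries numbered 1 and 0 in a fit of these groups alone. In RWB library 1 mitochondrially encoded genes took 13.1% of counts, and the part of that in the result was not tested.

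Pgk1 and Pdk1, which were lower in RWB on D18, were not called at D25. Pgk1 had 1102, 1243 and 695 CPM in RWB and 1289 and 1194 CPM in SSCi (-0.29, SE 0.25). Pdk1 had 41.8, 157 and 55.3 CPM against 166 and 153 CPM (-0.91, SE 0.39). In Pdk1, library 2 of RWB stood apart from the other 2 and reached the SSCi level. The same library held the highest value of its group in Hk2 (8.64, 70.6 and 47.9 CPM) and Slc16a3 (5.23, 85.6 and 46.0 CPM). Gpi1 had 447, 953 and 721 CPM in RWB and 1364 and 1649.7 CPM in SSCi, and Pfkp 55.5, 276 and 253 against 775 and 759 CPM. Aldoa had 1244, 2125 and 1521 CPM in RWB and 1529 and 2176 CPM in SSCi, and Ldha 4158, 3926 and 2903 against 3107 and 3393 CPM, with overlap in Aldoa and Ldha. Nearby genes called were Hkdc1 (-2.78), a hexokinase domain protein, the bisphosphatase Tigar (1.23), the phosphatase Pdp2 (-0.66) and the dehydrogenase subunit Dlat (0.71), which are the 4 called of 21 tested in their list. Among the carriers outside the set Slc16a6 (2.62) and Slc16a9 (2.69) were higher and Slc2a4 (-1.72) was lower. Of the rod markers Rbp3 was lower (-2.47) and Gnat1 higher (3.07) in RWB, 3 of 6 cone markers were higher and 4 of 6 proliferation markers lower. Of 4 surface epithelium markers tested 3 were lower in RWB. That list summed to 8.28 to 9.83 CPM in RWB and 45.0 to 50.8 CPM in SSCi. The part of these markers in the result was not tested.

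Over time some members rose in each of the 3 methods. From D18 to the last day edgeR called 15 of 34 members higher in RWB (D25), 17 in SSCd (D28) and 10 in SSCi (D32), and none lower. Among all genes 14.9%, 17.5% and 16.2% were higher and 14%, 17.1% and 20.5% lower. The medians of the members were 0.99, 0.89 and 0.56, against 0.061, 0.022 and -0.053 for all genes. Hk1, Pfkfb2, Aldoa, Aldoc, Pgam1, Eno2, Pdk2 and Bsg were called in all 3 methods. In RWB the count was 9 without D18 library 2 and 8 in a fit of these groups alone. For SSCd it was 11 without both libraries numbered 1. In SSCi it was 4 without D18 library 1, 6 without D32 library 2 or 3, 4 without both libraries numbered 1, and 19 in a fit of these groups alone, 18 of them higher and 1 lower. The D18 libraries are those of the comparisons between methods. The days that passed differ between methods, so the values stand side by side.

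**Figure D4:**
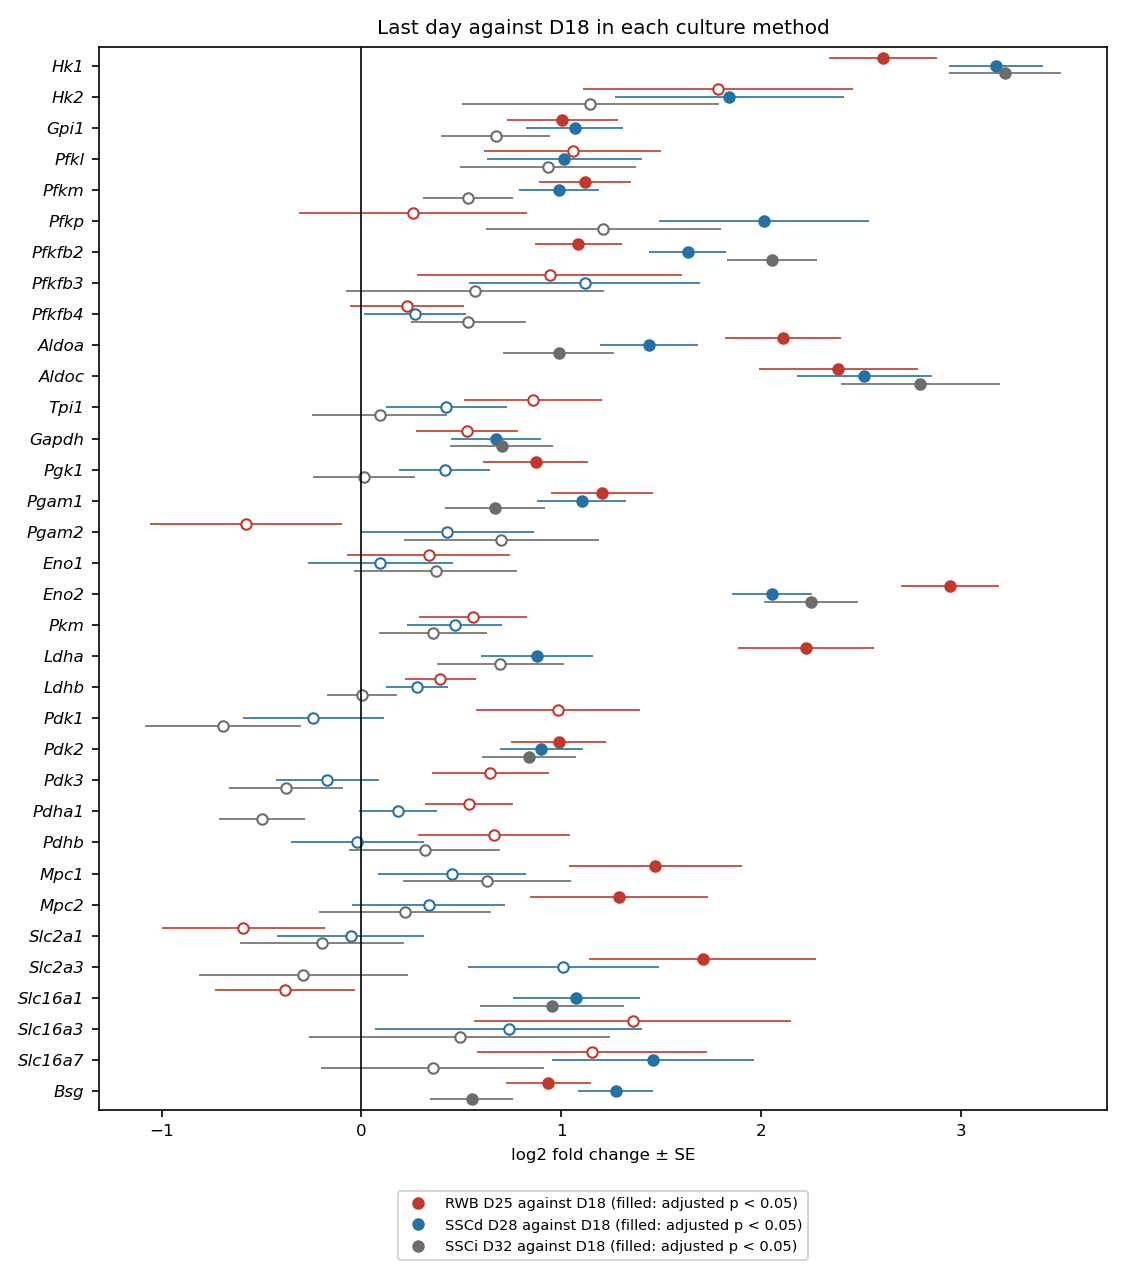
The log2 fold change of each member from D18 to the last day, with its standard error, in RWB (D25, red), SSCd (D28, blue) and SSCi (D32, grey), filled where the edgeR adjusted p is under 0.05. Hk1, Aldoc and Eno2 lie at 2 or above in all 3 methods, while Slc2a1, Eno1, Pkm and Ldhb lie between -0.59 and 0.56 with open points.

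The largest rises were in isoforms that brain and neurons prefer. Hk1 had 289, 282 and 375 CPM in RWB D25, 555, 426 and 476 CPM in SSCd D28 and 664, 538 and 592 CPM in SSCi D32, after D18 values of no more than 71.1 CPM. It rose by 2.61 (SE 0.27), 3.18 (SE 0.24) and 3.22 (SE 0.28) on the log2 scale, with edgeR adjusted p of at most 8.24e-07. Eno2 reached 325, 245 and 337 CPM, 391, 313 and 351 CPM and 418, 358 and 363 CPM in the same order, from at most 94.7 CPM on D18, and rose by 2.95 (SE 0.25), 2.05 (SE 0.20) and 2.25 (SE 0.24). Aldoc reached 47.9, 49.5 and 88.6 CPM in RWB, 273, 286 and 261 CPM in SSCd and 292, 325 and 336 CPM in SSCi. Its rises of 2.39, 2.52 and 2.80 were similar in size, although the level in RWB D25 was far below that of the static methods. The activator-making enzyme Pfkfb2 rose by 1.09, 1.63 and 2.05, and Pdk2 by 0.99, 0.90 and 0.84.

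Other rises were called in 1 or 2 of the methods. Ldha reached 4158, 3926 and 2903 CPM in RWB, 4271, 4133 and 3826 CPM in SSCd and 3438, 3302 and 3471 CPM in SSCi. It rose by 2.23 in RWB (SE 0.34, edgeR adjusted p = 5.49e-05) and 0.88 in SSCd (edgeR adjusted p = 0.0197), and stood at 0.70 in SSCi (edgeR adjusted p = 0.0950). The RWB value set out from the lowest D18 level. Mpc1 (1.47), Mpc2 (1.29), Slc2a3 (1.71) and Pgk1 (0.87) were called in RWB alone, and Hk2 (1.84), Pfkp (2.02), Pfkl (1.02) and Slc16a7 (1.46) in SSCd alone. In RWB the call of Mpc1 stood in 3 of the 5 runs that left out a single library. Those of Mpc2, Slc2a3 and Pgk1 stood in 2 of 5 each. Of 6 such runs in SSCd the call of Pfkp stood in 6, Hk2 in 4, Slc16a7 in 3 and Pfkl in 1. Differences between methods in these rises were not tested. Slc16a1 rose in SSCd (1.07) and SSCi (0.95) and stood at -0.38 in RWB. Hk2 reached 103, 172 and 205 CPM in SSCd D28 and 264, 242 and 247 CPM in SSCi D32, where its D18 libraries already held 114 and 113 CPM. Slc2a1, which feeds the route, was called in none of them, with 140.1, 484 and 243 CPM in RWB D25, 456, 589 and 753 CPM in SSCd D28 and 951, 803 and 859 CPM in SSCi D32.

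The remaining members that were followed library by library reached these levels on the last day. Aldoa had 2705, 2598 and 3254 CPM in SSCd and 2489, 2438 and 2544 CPM in SSCi, Gpi1 1295, 1510.4 and 2252 CPM against 1649.8, 1802 and 1874 CPM, and Pfkp 891, 1296 and 1734 CPM against 1043, 1361 and 1253 CPM. Aldoa rose by 2.11, 1.44 and 0.99 in RWB, SSCd and SSCi, and Gpi1 by 1.01 and 1.07 in the first pair. Pgk1 had 1612, 2065 and 2297 CPM in SSCd and 1647, 1859 and 1847 CPM in SSCi, Pgam1 1004, 1185 and 1703 CPM against 1092, 1306 and 1193 CPM, and Pdk1 126, 228 and 240.0 CPM against 171, 220.2 and 193 CPM. Pdk1 was called in none of the 3 methods, at 0.98, -0.24 and -0.69. Tpi1 had 1144, 1449 and 1897 CPM in SSCd and 1279, 1288 and 1243 CPM in SSCi, Pfkl 495, 525 and 627 CPM against 639.6, 594 and 611 CPM, and Bsg 900.5, 738 and 978 CPM against 599, 709.7 and 677 CPM. Bsg rose by 0.93, 1.27 and 0.55. Of the 8 pentose phosphate genes 2, 3 and 4 were lower in RWB, SSCd and SSCi, none was higher, and 6, 5 and 4 were not called. The isomerase Rpia fell by 0.77, 0.99 and 1.05 in the 3 methods. The hypoxia-responsive genes outside glycolysis were higher in 7, 6 and 4 of 16, with Ndrg1 at 1.77, 2.34 and 2.87, and Car9 was lower in SSCd (-1.81) and SSCi (-3.16). All 8 rod markers were higher and all 6 proliferation markers lower in every method. Of the 6 Mueller glia markers 5, 4 and 4 were higher in RWB, SSCd and SSCi, and none was lower. Of the 6 cone markers 4 were higher in RWB, 2 lower in SSCd and 2 higher in SSCi. All 6 mesenchyme markers were lower in SSCi, where 1 of the D18 libraries held 6149 CPM of them, and 1 was higher in SSCd. The rod list summed to 210.5 to 314 CPM in RWB D18 and 3154 to 3809 CPM in RWB D25, and to 314 to 471 CPM in SSCi D18 and 12455 to 16289 CPM in SSCi D32. The proliferation list went from 2360.0 to 2734 CPM down to 212 to 376 CPM in RWB and from 1691 to 2164 CPM down to 136 to 165 CPM in SSCi. The part of any of these marker lists in the rises was not tested.

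Isoenzymes were then compared within a library, where a ratio of counts needs no scaling. For 9 pairs the log2 ratio was compared between RWB and SSCd over D18 and D22, with culture labels permuted within day, and between the last day and D18, with day labels permuted within method. These 18 two-sided exact permutation tests were adjusted together, and the smallest p that they allow is 0.005 for culture and 0.0005 for day. Between RWB and SSCd 5 pairs were called. Hk2 over Hk1 was lower in RWB by 1.80 on the log2 scale, and Pfkm over Pfkl was higher by 1.41. Ldhb over Ldha was higher by 1.24, so RWB libraries held relatively more of the oxidative subunit. Each of these 3 had p = 0.005 by the exact test and an adjusted p of 0.0129. Aldoc over Aldoa was lower by 0.72 and Slc2a3 over Slc2a1 by 0.98 (exact p = 0.025 and adjusted p = 0.045 for both), and each of these calls was lost in 9 of the 11 runs that left out a single library. Pfkp over Pfkl (-0.31), Eno2 over Eno1 (-0.17), Slc16a7 over Slc16a1 (0.70) and Pkm M1 over M2 (0.24) were not called. With counts per transcript length Slc16a7 over Slc16a1 was called (0.72, adjusted p = 0.04 by the exact permutation test). Without SSCd D22 library 2 Hk2 over Hk1 had an adjusted p of 0.054 (exact permutation test), while the calls of Pfkm over Pfkl and Ldhb over Ldha held whichever single library was left out. The number of pairs called was 3 without RWB D18 or D22 library 1 or 2, SSCd D18 library 1 or 2, or SSCd D22 library 3, and 2 without SSCd D22 library 2. Labels were also permuted within replicate number, a block that leaves few arrangements. Between RWB and SSCd it leaves too few for any p under 0.05, so no pair could be called there whatever its values. Over time no pair was called with the block. The smallest adjusted p of both comparisons was 0.125 by that exact permutation test.

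**Figure D5:**
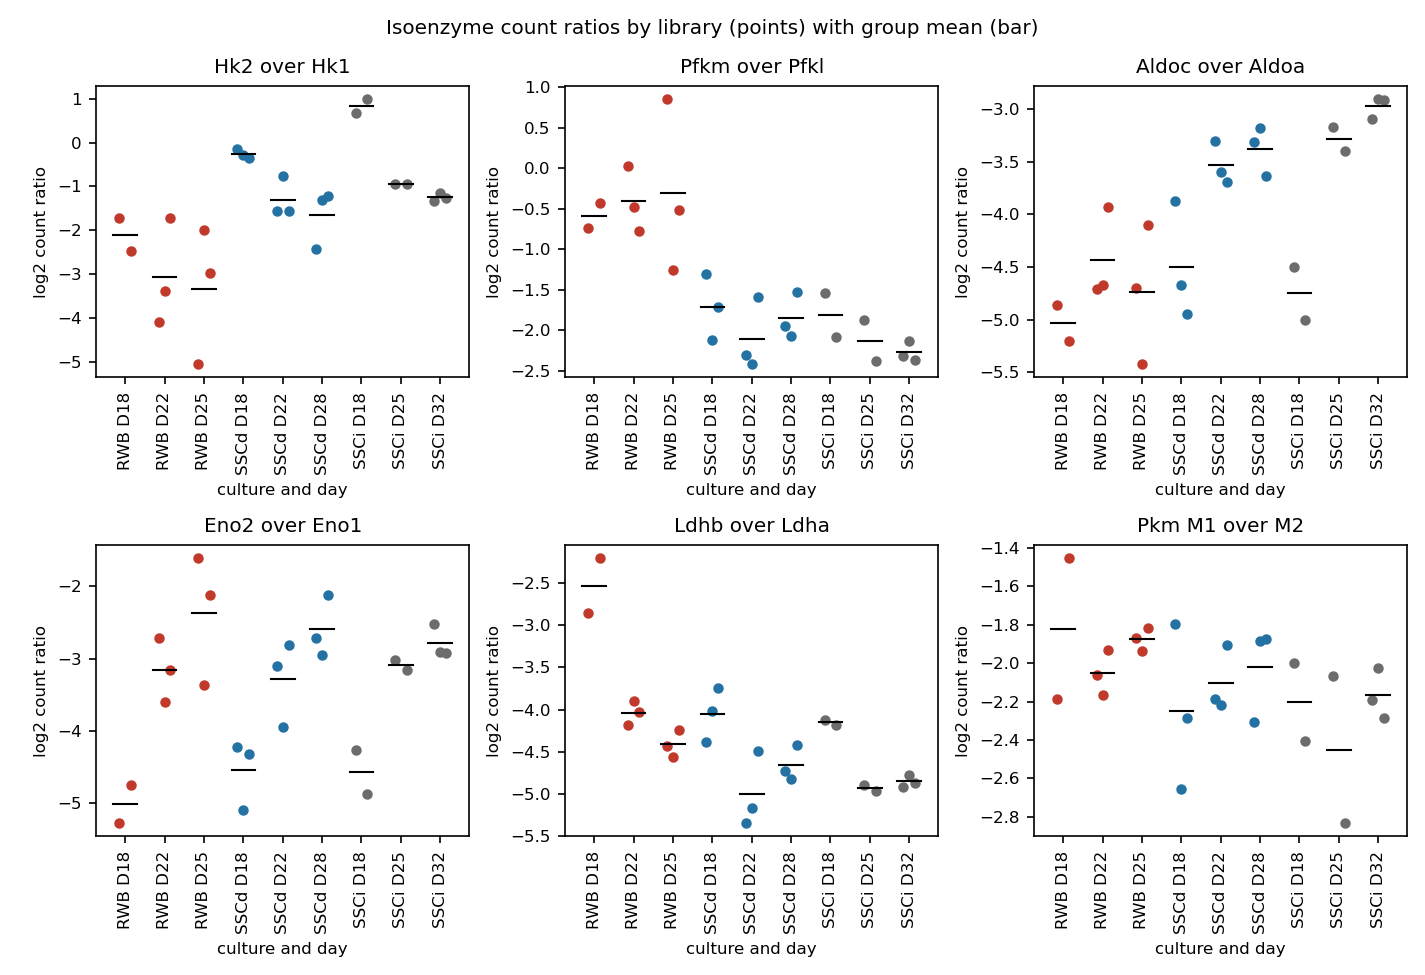
Log2 ratio of estimated counts of 2 isoenzymes, or of the M1 and M2 transcripts of Pkm, in every library (points) with the group mean (bar). Hk2 over Hk1 and Pfkm over Pfkl separate RWB from SSCd on D18 and D22, and Eno2 over Eno1 climbs with day in all 3 methods.

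The ratios by library show how the calls arose. Hk2 over Hk1 was -1.72 and -2.48 in RWB D18 and -4.09, -3.38 and -1.73 in RWB D22, against -0.14, -0.27 and -0.36 in SSCd D18 and -1.57, -0.75 and -1.57 in SSCd D22. RWB lay below SSCd in every library of its day. Pfkm over Pfkl was -0.74 and -0.43 in RWB D18 and 0.03, -0.47 and -0.77 in RWB D22, against -1.30, -2.12 and -1.71 in SSCd D18 and -2.30, -2.42 and -1.59 in SSCd D22. Ldhb over Ldha was -2.86 and -2.20 in RWB D18 and -4.18, -3.90 and -4.03 in RWB D22, against -4.39, -4.02 and -3.75 in SSCd D18 and -5.35, -5.17 and -4.49 in SSCd D22. These pairs also stood apart on both days. The D18 difference in Ldhb over Ldha was 1.52 and the D22 difference 0.96.

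Against day, 5 pairs were called as well, and 3 without RWB D18 library 1. Eno2 over Eno1 went up by 2.13 (exact p = 0.0005, adjusted p = 0.0045), by 2.65 in RWB, 1.96 in SSCd and 1.79 in SSCi. The near-identical copies of Eno1 took from 0.0397% to 46.4% of the joint counts over the libraries, so the size of this ratio is uncertain. With the copies added, a check chosen after seeing the data, the call held. Ldhb over Ldha went down by 1.07 (exact p = 0.0005, adjusted p = 0.0045), by 1.88, 0.61 and 0.70 in RWB, SSCd and SSCi. Ldha rose in RWB and SSCd, and Ldhb was called in none of the methods. Without RWB D18 library 1 the call of Hk2 over Hk1 was lost (adjusted p = 0.0836 by the exact permutation test). With all libraries Hk2 over Hk1 went down by 1.57 (exact p = 0.002, adjusted p = 0.012), although Hk2 itself was called lower in none of the methods. Hk1 rose in all 3. Aldoc over Aldoa went up by 1.06 (exact p = 0.004, adjusted p = 0.0129), by 0.29 in RWB, 1.12 in SSCd and 1.78 in SSCi. Slc2a3 over Slc2a1 went up by 1.05 (exact p = 0.0165, adjusted p = 0.0371), with 2.46 in RWB, 0.82 in SSCd and -0.13 in SSCi, and this call was lost in 8 of the runs that left out a single library. Pfkm over Pfkl (-0.10), Pfkp over Pfkl (0.093), Slc16a7 over Slc16a1 (0.54) and Pkm M1 over M2 (0.069) were not called.

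The M1 and M2 transcripts of Pkm are those of the exons printed above. The M1 transcript took between 12.3% and 26.8% of M1 and M2 counts over the 24 libraries, and the group means lay between 15.8% (SSCi D25) and 22.4% (RWB D18). In RWB the shares were 18.0% and 26.8% on D18, 19.3%, 18.2% and 20.8% on D22 and 21.5%, 20.7% and 22.1% on D25. In SSCd they were 22.3%, 13.7% and 17.0% on D18, 18.0%, 17.7% and 21.0% on D22 and 16.8%, 21.3% and 21.5% on D28. In SSCi they were 20.0% and 15.9% on D18, 19.2% and 12.3% on D25 and 18.0%, 19.7% and 17.0% on D32. M2 was the larger share in every library. The D18 groups of RWB and SSCd spread over most of the whole range.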

How the data were processed

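RNA of 24 libraries in 9 groups was deposited as estimated counts per gene and per transcript. Per the submitters' processing notes the authors used kallisto 0.42.5, edgeR 3.13.9, limma 3.32.2 and GRCm38.p5, with no role or order given. Neither the annotation release nor the way transcripts were combined into genes is given in the sources used here. Estimated counts were rounded, scaled by TMM and filtered with filterByExpr, which left 16792 of 33846 genes. A single edgeR 4.0.16 quasi-likelihood fit (R 4.3.3) with 9 group means gave each comparison, adjusted by Benjamini-Hochberg over all genes tested at 0.05. Each standard error is the size of the log2 change divided by the square root of its F statistic, and the median biological coefficient of variation was 0.256. Isoenzyme ratios took 0.5 added to both counts. Totals of 13284632 to 21604446 counts per library bound the precision of low genes. The variance between libraries of a group was 10.3 to 273 times the counting noise, so none was counted as a repeated deposit. Counts of genes sharing at least 50% of their 31-base words with a member were added to it as an alternative.

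Values in every library were given for members called between RWB and SSCd on D18 or D22, at most 12 by the smallest p at D22, and for the isoenzyme pairs; of other lists at most 4 genes by smallest p were named. A result that met this rule is not reported here. Slc16a3, Mpc1, Pdha1 and the Rpia, Ndrg1 and Car9 values over time were added after their values were seen. The members and lists were chosen with earlier results of these data known. Samples of a group are separate by their labels, and p-values measure the spread between them. In RWB and SSCd of D22 the libraries of number 1, 2 and 3 deviated together (correlations of 0.43, 0.20 and 0.43). These numbers were taken to pair in the alternative with a replicate block only, and the main fit used no pairing. Libraries of the same number also deviated together across days, at 0.41, 0.12 and 0.33 between SSCd D22 and SSCd D18. Between RWB D22 and SSCd D18 the correlations were 0.34, 0.21 and 0.27. They thus do not single out a pairing within D22, and what a number shares is not given. Alternatives were DESeq2 size factors, DESeq2 1.42.0, no filter, a fit of the compared groups alone, the replicate number as a block, leaving out each library, and leaving out the libraries numbered 1. The procedure was tested on simulated data.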

Additional observations from a re-analysis of the deposited data

How the results depend on the processing

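No member that was called changed direction under any alternative run. The number of members called moved with single libraries, with the tool and with the samples in the fit. Leaving out each library in turn gave 5 to 13 calls in place of 11 between RWB and SSCd at D22, 0 to 5 in place of 6 at D18, 0 to 8 in place of 12 between RWB and SSCi at D18, and 0 to 9 in place of 7 at D25. Over time it gave 9 to 18 in place of 15 in RWB, 12 to 16 in place of 17 in SSCd and 4 to 9 in place of 10 in SSCi. Without the libraries numbered 1 the counts were 0, 0, 1 and 0 in the 4 comparisons of RWB, 11 in SSCd over time and 4 in SSCi over time. A fit of the compared groups alone gave 4, 0, 0 and 0 in the comparisons of RWB, 8 in RWB over time and 19 in SSCi over time. DESeq2 gave 19 at D22 and 10 at D18 between RWB and SSCd. With no filter on low counts SSCi over time had 6. Fewer samples enter the first 3 kinds of fit; otherwise the cause was not tested. With the replicate number as a block the counts were 12 at D22 and, where numbers are not shown to pair, 3 at D18 between RWB and SSCd, 11 at D18 and 11 at D25 between RWB and SSCi, and 6 in SSCi over time. RWB and SSCi libraries of D18 with the same number deviated in opposite directions (-0.19), and the crossed block gave 13 calls. Over the log2 fold changes of single members a call was lost in 112 and gained in 45 values under alternatives that kept all libraries or dropped those numbered 1, and lost in 144 and gained in 22 when 1 library was left out. The isoenzyme pairs called numbered 2 to 5 between RWB and SSCd and 3 to 6 over time when a library was left out. With the replicate block they numbered 0 and 0, but between RWB and SSCd that block has too few arrangements to call any pair.

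The groups hold 2 or 3 libraries each. The adjusted p of the calls rests on 1 spread shared by all 9 groups. Near-identical copies make Eno1, Gapdh and Pgk1 uncertain; adding the copies, an alternative chosen after seeing the data, left the count of calls as it was in all 9 comparisons.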
